A study of Homo sapiens with 8 samples.

Results

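The genes described here are 10 transcriptional outputs of ERK signalling: the ERK phosphatases DUSP4, DUSP5 and DUSP6, the Sprouty adaptors SPRY1, SPRY2 and SPRY4, the Sprouty-related proteins SPRED1 and SPRED2, and the ETS transcription factors ETV4 and ETV5, together called the 10 feedback genes here. They were taken from the expression table by symbol, whatever their values, and each symbol stood on 1 entry of the 63816 in the table. All 10 passed the filter on low values (at least 1 TPM, transcripts per 1e+06 transcripts, in at least 4 libraries), as did 15590 entries in all.

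RNA was sequenced from cells labelled Caco-2, an established line from a human colorectal adenocarcinoma, in 4 libraries of cells carrying the empty vector (control) and 4 of cells carrying the vector with SIGLEC12, the gene of Siglec-XII. The vector was pcDNA3.1, and both groups are stable transfectants kept under G418 selection, so each group comes from its own transfection and selection, and the effect of Siglec-XII cannot be told apart from that of the selected line. The series is described as RNA from stable clones in 3 cultures per condition, while 4 samples per condition are listed and the methods describe technical replicate libraries, so the p-values given here measure the spread between these libraries, which may be technical. The study also assayed ERK phosphorylation in such cells by immunoblotting, and the question put to these data is whether the transcripts that ERK signalling is known to raise differed between the groups.

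When a growth factor binds its receptor tyrosine kinase, the small GTPase RAS is loaded with GTP and switches on the kinases RAF, MEK and ERK in turn. Active ERK induces a set of genes whose products switch the pathway off again. DUSP proteins strip the activating phosphates from ERK, Sprouty proteins interfere between the receptor and RAF, and SPRED proteins bring the GTPase activator neurofibromin to RAS at the membrane. ETV4 and ETV5 belong to the PEA3 group of ETS factors and carry the ERK signal to further genes. Because these transcripts follow ERK activity, they are widely used as its readout in epithelial cells and carcinomas.

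SIGLEC12 itself (ENSG00000254521) was between 0.0399 and 0.122 TPM in the empty vector libraries and between 1582 and 1734 TPM in the Siglec-XII libraries, as the labels require (exact permutation test, two-sided, p = 0.0286, which is the lowest p possible with 4 against 4 libraries). Mitochondrially encoded genes took 6.67 to 11.2% of the TPM and the 100 most abundant entries 28.3 to 32.4%, and 15513 to 15934 entries reached 1 TPM per library. The labels give a depth per sample of about 25000000 to 40000000 reads, but the table holds log2(TPM + 1) with no counts, so the number of reads behind each value is unknown and intervals come only from the spread between libraries. Of 20 markers of colon epithelium and Caco-2, only CDX1, CDX2, EPCAM, KRT8 and KRT18 passed the filter, 12 were below 1 TPM in every library, and KRT20, FABP1, SI and MEP1A were listed at 0 throughout. The summed level of these markers was 7160 to 8137 TPM with the empty vector and 8642 to 8957 TPM with Siglec-XII, most of it from KRT8 (means of 3900 and 4620 TPM) and KRT18 (2950 and 3420 TPM), keratins of simple epithelia in general. Of 20 trophoblast markers 15 passed the filter, summing to 2917 to 2999 TPM and 2906 to 2995 TPM. XAGE3 (1170 and 1190 TPM), GATA3 (402 and 359 TPM) and HSD3B1 (344 and 345 TPM) were among them. CGA, PSG1, ERVFRD-1 and ERVW-1 also passed, but with means over all libraries of only 0.785 to 1.4 TPM. CGB3, CGB5, CGB8, CYP11A1 and ELF5 were below 1 TPM in every library. Of 10 fibroblast markers 7 passed, summing to 108.2 to 128.3 TPM and 125.3 to 137.4 TPM. The labelled line is therefore not borne out by most of its defining markers, in both groups alike, and Caco-2 is used here as the name the labels give. The part of these markers in the results was not tested, and in bulk RNA fewer cells of a type and less RNA per cell cannot be told apart.

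In the 10 feedback genes 1 control library stood apart. Empty vector replicate 2 was the highest of its group for 9 of the 10 genes, whereas it was the highest for 34.9% of all tested entries. Its median deviation from the mean of the other libraries of its group was 0.31 in log2(TPM + 1) over the 10 genes. Over all tested entries it was 0.05. Siglec-XII replicate 3 was the lowest of its group for 7 of the 10 genes, against 26.7% of all tested entries. Its median deviation, taken in the same way, was -0.18 over the genes and -0.01 over all entries. Replicate 2 of the empty vector had 8.49% mitochondrial TPM and 15801 entries at 1 TPM, inside the range of its group for both. Replicate 3 of Siglec-XII had 7.92% and 15700 entries, the fewest of its group, and the part of this in its values was not tested. The difference of each of the 10 genes is therefore also given without Empty vector replicate 2. That library was picked for its high values in these same genes. Leaving it out raises the difference by construction wherever it was the highest control, so the p-values without it carry that choice and only describe.

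**Figure D1:**
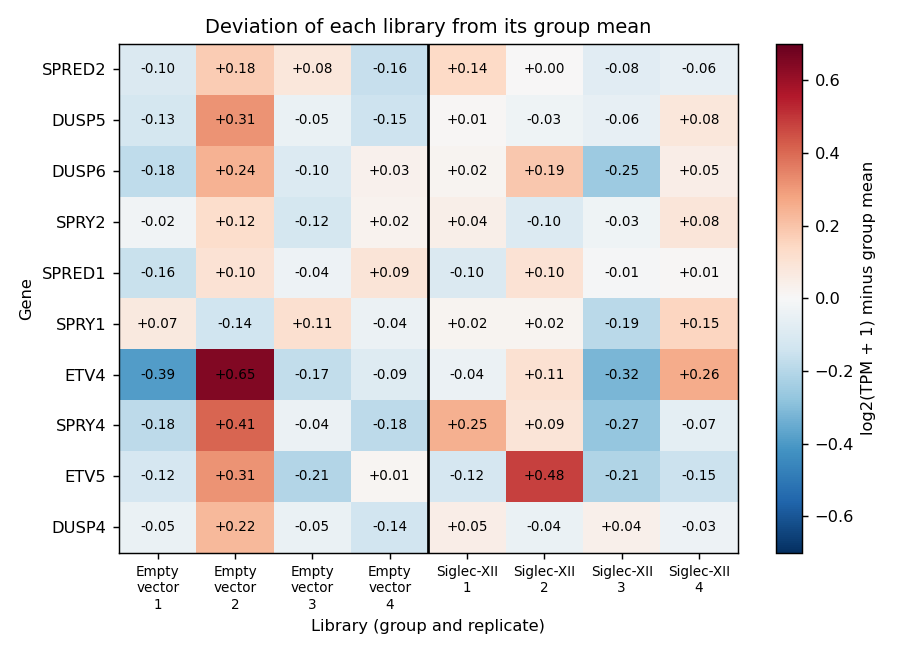
Deviation of each library (x axis, group and replicate) from its group mean for each gene (y axis, ordered by level), as a difference in log2(TPM + 1), printed in each cell and shaded from blue (below) to red (above). The column of Empty vector replicate 2 is above its group mean for 9 of 10 genes, with SPRY1 the exception, and that of Siglec-XII replicate 3 is the lowest of its group for 7 of 10.

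In levels, which TPM gives per transcript length, the genes spanned from SPRED2 at a mean of 27.9 TPM over the 8 libraries to DUSP4 at 1.26 TPM. DUSP5 (18.2 TPM) and DUSP6 (14.2 TPM) came next after SPRED2, followed by SPRY2 (6.53 TPM), SPRED1 (5.45 TPM) and SPRY1 (5.34 TPM), and then by ETV4 (3.7 TPM), SPRY4 (2.7 TPM) and ETV5 (1.35 TPM). Neighbours in this order overlapped over the libraries in 7 of 9 cases, the exceptions being SPRED2 over DUSP5 and DUSP6 over SPRY2. SPRED2 stood at percentile 66.6 of the tested entries by level and DUSP4 at percentile 5.89, so the nuclear phosphatase DUSP4 and ETV5 were measured near the lower limit of the filter. The lowest genes were also those where adding 1 TPM before taking logs shrinks a difference most.

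**Figure D2:**
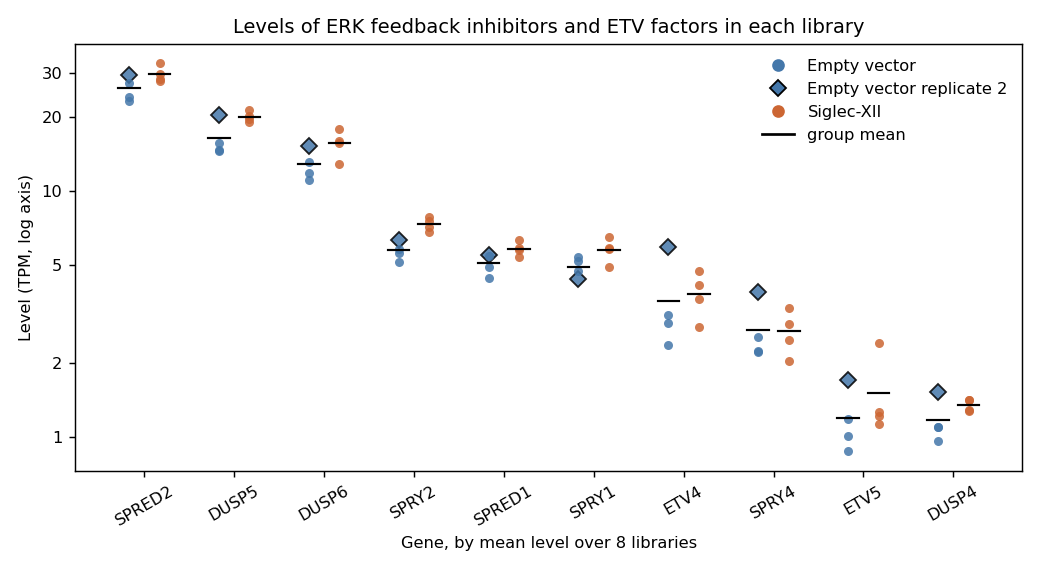
Level of each gene (x axis, ordered by mean level) in each library as TPM on a log axis, for the empty vector (blue, with replicate 2 as a black-edged diamond) and Siglec-XII (orange), with black bars for the group means. The 4 Siglec-XII libraries of SPRY2 lie above all 4 empty vector libraries, while in every other gene the groups overlap.

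In none of the 10 genes did the difference between the groups pass the test: 0 of 10 had an adjusted p under 0.05 (limma, Benjamini-Hochberg over all tested entries), where 101 of 15590 entries did (0.648%), 53 higher and 48 lower with Siglec-XII. Before adjustment, 3 genes had a p of 0.05 or less with the higher mean in Siglec-XII (DUSP5, DUSP6 and SPRY2), beside 13.9% of all tested entries in that direction, and 0 had one with the lower mean, beside 2.61%. The mean was higher with Siglec-XII for 9 of 10 genes, beside 68.1% of all tested entries, and the median difference was 0.19 in log2(TPM + 1) over the 10 genes and 0.07 over all entries. The groups did not overlap for 1 gene with Siglec-XII higher (SPRY2), beside 9.17% of all entries, and for 0 genes with Siglec-XII lower, beside 1.68%. The 95% intervals ran at most from -0.39 to 0.62, so a difference of 1 in log2(TPM + 1), in either direction, was outside the interval of each of the 10 genes. For the lowest genes, DUSP4 and ETV5, that step is well above a 2-fold difference in TPM. A doubling of ETV5, whose interval reached 0.61, is therefore not clearly outside. The interval of DUSP4 ended lower, at 0.41.

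Among the phosphatases, DUSP5 had the clearest difference. DUSP5 (ENSG00000138166, GRCh37 chromosome 10, 112257665 to 112271291, plus strand) is a nuclear phosphatase specific for ERK. Its level was 14.7, 20.4, 15.7 and 14.5 TPM in empty vector replicates 1 to 4 and 20.2, 19.5, 19.1 and 21.2 TPM in Siglec-XII replicates 1 to 4. The Siglec-XII libraries lay close together and all above 3 of the control libraries, but Empty vector replicate 2 fell among them. The difference was 0.29 in log2(TPM + 1) (SE 0.10, 95% interval 0.06 to 0.52, adjusted p = 0.22, limma). Without Empty vector replicate 2 it was 0.39, with no overlap and an adjusted p of 0.0423. This was the single adjusted p under 0.05 that any of the 10 genes reached under any of the alternatives. It rests on leaving out a library chosen for its high values in these genes, DUSP5 among them.

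DUSP6 (ENSG00000139318, chromosome 12, 89741012 to 89746278, minus strand) is the cytoplasmic ERK phosphatase and among the most used transcript readouts of ERK activity. It was at 11.1, 15.2, 11.8 and 13.1 TPM with the empty vector and at 15.7, 17.8, 12.9 and 16.0 TPM with Siglec-XII. Siglec-XII replicate 3 lay below 2 of the control libraries and the other 3 lay above all 4. The difference was 0.27 (SE 0.12, interval 0.00 to 0.53, adjusted p = 0.3, limma), and 0.35 without Empty vector replicate 2 (adjusted p = 0.154). DUSP4 (ENSG00000120875, chromosome 8, 29190581 to 29208201, minus strand), a nuclear phosphatase that also acts on other MAP kinases, was at 1.10, 1.53, 1.10 and 0.968 TPM and at 1.42, 1.28, 1.41 and 1.29 TPM. Its control libraries other than replicate 2 were all below the 4 Siglec-XII libraries, and replicate 2 was above them. The difference was 0.12 (SE 0.13, interval -0.18 to 0.41, adjusted p = 0.691), and 0.19 without that library (adjusted p = 0.464).

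The Sprouty genes differed among themselves in how far the groups were apart. SPRY2 (ENSG00000136158, chromosome 13, 80910111 to 80915261, minus strand) was at 5.60, 6.32, 5.15 and 5.83 TPM with the empty vector and at 7.57, 6.79, 7.15 and 7.82 TPM with Siglec-XII. Every Siglec-XII library was above every control library, which held for none of the other 9 genes. The difference was 0.31 (SE 0.09, interval 0.11 to 0.51, adjusted p = 0.147, limma). It stayed between 0.27 and 0.35 as each library in turn was left out, with no overlap and an adjusted p of 0.1 to 0.307.

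SPRY1 (ENSG00000164056, chromosome 4, 124317950 to 124324915, plus strand) was at 5.19, 4.37, 5.37 and 4.72 TPM and at 5.82, 5.84, 4.91 and 6.47 TPM. It is the exception among the 10 genes in that Empty vector replicate 2 was the lowest control library, and here Siglec-XII replicate 3 was the one that overlapped the controls. The difference was 0.19 (SE 0.10, interval -0.04 to 0.43, adjusted p = 0.39), and 0.15 without Empty vector replicate 2. SPRY4 (ENSG00000187678, chromosome 5, 141689992 to 141706020, minus strand) was at 2.22, 3.87, 2.56 and 2.23 TPM and at 3.35, 2.89, 2.03 and 2.47 TPM. Its highest library was a control and its lowest a Siglec-XII library. The difference was -0.01 (SE 0.17, interval -0.39 to 0.38, adjusted p = 0.988), and 0.13 without Empty vector replicate 2.

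Promoter windows, the 250 bases before an annotated start, were read from RefSeq on GRCh38.p14 and were at hand for 6 of the 10 genes (DUSP6, SPRY1, SPRY2, SPRY4, SPRED1 and SPRED2), 10 windows in all. Those of DUSP6 (chr12:89352502-89352751, minus strand) and of the most upstream start of SPRY2 (chr13:80341127-80341376, minus strand) are printed because both genes had an unadjusted p of 0.05 or less. They are given 5′ to 3′ on the strand of the gene and end 1 base before the start, and capitals mark AGGAAG, the core bound by the PEA3 group that includes ETV4 and ETV5, here on the opposite strand.
DUSP6: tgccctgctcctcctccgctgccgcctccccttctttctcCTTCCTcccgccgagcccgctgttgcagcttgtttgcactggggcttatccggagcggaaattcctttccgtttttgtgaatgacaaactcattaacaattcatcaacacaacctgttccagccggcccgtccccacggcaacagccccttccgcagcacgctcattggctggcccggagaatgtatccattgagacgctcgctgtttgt
SPRY2: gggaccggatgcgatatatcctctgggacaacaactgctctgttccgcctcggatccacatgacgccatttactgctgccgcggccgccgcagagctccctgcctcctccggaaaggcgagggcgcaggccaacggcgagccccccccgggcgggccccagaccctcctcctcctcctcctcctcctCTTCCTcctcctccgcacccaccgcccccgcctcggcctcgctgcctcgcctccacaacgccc
The match began 210 bases before the start in DUSP6 and 63 bases before it in SPRY2. On either strand AGGAAG stood in 8 of the 10 windows, from 5 of the 6 genes with SPRY4 the exception. SPRY1, SPRY2 and SPRED2 gave more than 1 window each. Over all 35116 windows of this length, AGGAAG stood in 28.7%, a share per window and not per gene. The ETS site CCGGAAG was in 1 of the 10 windows (SPRY1) and in 8.52% of all. TGAATGNA, a partial pattern for the octamer of the repressor CIC, was in 0 of the 10 and in 3.25% of all. Other forms of that octamer were not counted, so these values do not show that the windows, DUSP6 included, lack a CIC site. TGANTCA, the AP-1 site, and TGACGTCA, the CRE, were in 0 of the 10 and in 6.57% and 1.65% of all. These matches describe letters in a short window and not binding.

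The SPRED genes had small differences with narrow spread. SPRED2 (ENSG00000198369, chromosome 2, 65537985 to 65659771, minus strand) was at 24.1, 29.5, 27.4 and 23.1 TPM with the empty vector and at 32.9, 29.8, 28.0 and 28.4 TPM with Siglec-XII. Without Empty vector replicate 2 the groups would not overlap, and with it 2 of the 4 Siglec-XII libraries were above all controls. The difference was 0.19 (SE 0.09, interval -0.01 to 0.39, adjusted p = 0.316), and 0.25 without that library (adjusted p = 0.156). SPRED1 (ENSG00000166068, chromosome 15, 38545037 to 38649450, plus strand), the gene mutated in Legius syndrome, was at 4.41, 5.49, 4.92 and 5.46 TPM and at 5.37, 6.29, 5.77 and 5.86 TPM. All but 1 of its Siglec-XII libraries were above all controls. The difference was 0.17 (SE 0.10, interval -0.04 to 0.39, adjusted p = 0.402), and 0.20 without Empty vector replicate 2 (adjusted p = 0.322).

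ETV4 and ETV5 had the widest relative spread among the control libraries, with coefficients of variation of 44.2% and 30.4% in TPM, where those of the other 8 genes ran from 8.53% to 28.7%. ETV4 (ENSG00000175832, chromosome 17, 41605212 to 41656988, minus strand) was at 2.37, 5.91, 2.91 and 3.14 TPM with the empty vector and at 3.64, 4.14, 2.81 and 4.71 TPM with Siglec-XII. Empty vector replicate 2 had 2.10 times the mean TPM of the other 3 controls, the widest such gap among the 10 genes, and was the highest of all 8 libraries. The difference was 0.11 (SE 0.22, interval -0.39 to 0.62, adjusted p = 0.838), and 0.33 without that library (adjusted p = 0.307), while leaving out Empty vector replicate 1 gave -0.01. ETV5 (ENSG00000244405, chromosome 3, 185764103 to 185828107, minus strand) was at 1.01, 1.70, 0.876 and 1.19 TPM and at 1.26, 2.42, 1.13 and 1.22 TPM. Replicate 2 was the highest in each group, and without these 2 libraries the values ran only from 0.876 to 1.26 TPM. The difference was 0.18 (SE 0.19, interval -0.25 to 0.61, adjusted p = 0.682), and 0.28 without Empty vector replicate 2 (adjusted p = 0.479). Without Siglec-XII replicate 2 it was 0.02 (adjusted p = 0.965).

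**Figure D3:**
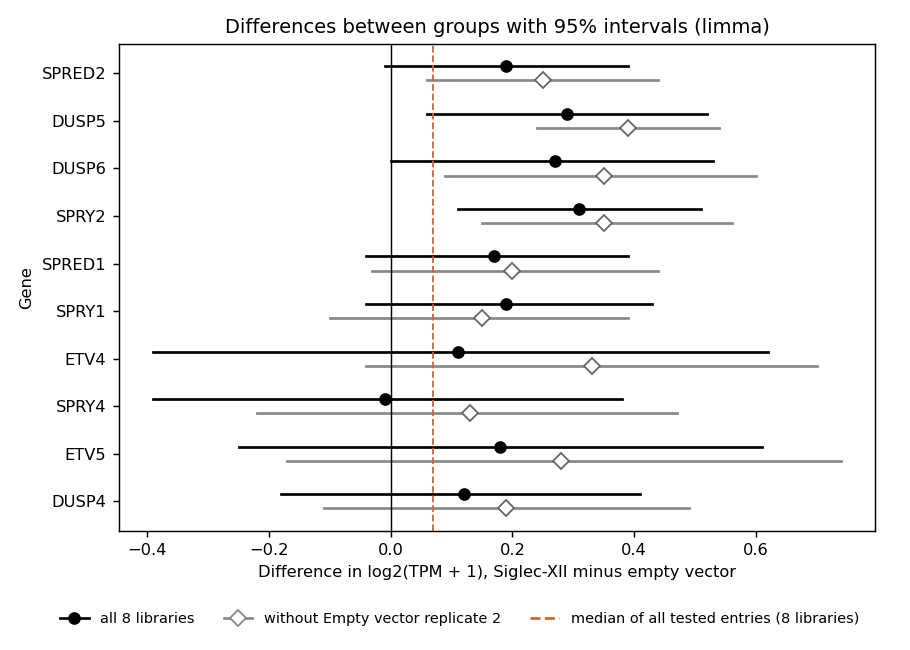
Difference between the groups for each gene (y axis) in log2(TPM + 1), Siglec-XII minus empty vector (x axis), with 95% intervals from limma, for all 8 libraries (black circles) and without Empty vector replicate 2 (grey diamonds); the dashed line is the median of all tested entries, 0.07. Differences ran from -0.01 (SPRY4) to 0.31 (SPRY2) with all libraries and from 0.13 to 0.39 without that library.

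The counts over the 10 genes depended on single libraries. Without Empty vector replicate 2, 1 gene had an adjusted p under 0.05 (DUSP5), beside 1.02% of all entries, and 4 an unadjusted p of 0.05 or less with Siglec-XII higher (DUSP5, DUSP6, SPRY2 and SPRED2), beside 16.7%. The groups then did not overlap for 4 genes (DUSP4, DUSP5, SPRY2 and SPRED2), beside 16.9% of all entries, and the median difference was 0.27, against 0.08 over all entries. Leaving out Empty vector replicate 1, Empty vector replicate 4 or Siglec-XII replicate 4 left an unadjusted count of 1 (SPRY2), beside 10.3%, 12.2% and 10.1% of all entries. The count without overlap was 3 without Siglec-XII replicate 3 (DUSP6, SPRY1 and SPRY2) and 2 without Siglec-XII replicate 1 (SPRY2 and SPRED1), beside 12.5% and 11.8%. With each of the other 7 libraries left out, no gene had an adjusted p under 0.05.

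The differences over all entries also varied with transcript length. Among protein-coding entries the median difference was -0.15 where the longest annotated transcript was under 500 nt and 0.09 where it had 4000 nt or more, and the longest transcripts of the 10 genes had 2335 to 7270 nt. With the trend of each library with length removed, the median was 0.11 over the 10 genes and 0.01 over all entries, and 2 genes, DUSP5 and SPRY2, had an unadjusted p of 0.05 or less. Annotated genes on the opposite strand overlap DUSP6, SPRY4, ETV4 and ETV5. The methods name a stranded library kit, but whether reads were assigned by strand is not given in the sources used here. DHX8, which overlaps ETV4, reached 33.9 TPM and SPRY4-AS1, which overlaps SPRY4, 1.71 TPM. The levels of ETV4 and SPRY4 may hold reads of these partners if their transcripts share sequence. Only the spans of the genes were compared, so this was not tested.

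None of the close relatives of the 10 genes had an adjusted p under 0.05. SPRY3, SPRED3, ETV1 and DUSP9 did not pass the filter, with highest levels over the 8 libraries of 0.132, 1.10, 0.256 and 0.649 TPM. DUSP7, a cytoplasmic ERK phosphatase like DUSP6, was at 4.69 ± 0.458 TPM with the empty vector and 4.99 ± 0.258 TPM with Siglec-XII (SD, n = 4 each; difference 0.08, adjusted p = 0.727, limma). DUSP1, an immediate early phosphatase of the stress kinases and ERK, was at 8.90 ± 0.947 TPM and 10.8 ± 1.05 TPM (difference 0.25, adjusted p = 0.24, and 0.31 without Empty vector replicate 2), with Empty vector replicate 2 again the highest control at 10.1 TPM. CIC, the repressor of the ETV genes that ERK signalling inactivates, was at 31.0 ± 2.89 TPM and 32.4 ± 2.86 TPM (difference 0.06, adjusted p = 0.753). NF1, the partner of the SPRED proteins, was at 22.1, 22.4, 23.2 and 17.3 TPM and at 28.9, 25.9, 25.0 and 26.3 TPM, with no overlap (difference 0.31, SE 0.09, adjusted p = 0.161).

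Around the feedback genes, the rest of the pathway was described by lists of genes by function. Of the RAS, RAF, MEK and ERK cascade 27 of 29 genes were tested, and 23 had the higher mean with Siglec-XII, 11 with an unadjusted p of 0.05 or less and 0 with an adjusted p under 0.05, where 68.1%, 13.9% and 0.648% of all tested entries did. MAPK3, the gene of ERK1, had the same mean of 78.3 TPM in both groups (0.00, adjusted p = 0.998). Of 20 receptor tyrosine kinases 15 were tested, with 12 higher (68.1% of all tested entries), 3 of them with an unadjusted p of 0.05 or less (13.9%), and 0 with an adjusted p under 0.05. The largest was AXL (14.1 ± 3.39 and 18.6 ± 1.59 TPM; 0.40, adjusted p = 0.217), which without Empty vector replicate 2 differed by 0.54 (adjusted p = 0.0438).

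Of 20 GTPase activators and other brakes on RAS and receptors 14 were tested, and 3 were higher and 1 lower at an unadjusted p of 0.05 or less, beside 13.9% and 2.61% of all tested entries, with 0 called after adjustment (0.648%). CBL, a ubiquitin ligase that takes activated receptors to degradation, was at 26.6, 29.0, 26.4 and 25.4 TPM and at 37.9, 31.2, 35.0 and 35.6 TPM, with no overlap (0.37, SE 0.07, adjusted p = 0.065; 0.0485 without Empty vector replicate 2). Its relative CBLB was at 6.76 ± 0.569 and 5.68 ± 0.513 TPM (-0.22, adjusted p = 0.292). Of the 7 other MAP kinase phosphatases 5 were tested, with all 5 means higher (68.1% of all tested entries), 1 unadjusted p of 0.05 or less (DUSP1, beside 13.9%) and 0 called.

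The one call in these lists was among the other ETS factors, of which 15 of 23 were tested and all 15 had the higher mean with Siglec-XII, 5 of them with an unadjusted p of 0.05 or less. Over all tested entries 68.1% had the higher mean and 13.9% such a p in that direction, and 0.648% were called in either direction. ETV3 (ENSG00000117036, chromosome 1, 157090983 to 157108266, minus strand), an ETS-domain repressor outside the PEA3 group, was at 13.9, 14.5, 14.4 and 15.0 TPM with the empty vector and at 22.4, 20.4, 21.7 and 21.7 TPM with Siglec-XII. Each group spanned only a narrow range and the groups were far apart, Empty vector replicate 2 included. ETV3 rose by 0.54 (SE 0.06, adjusted p = 0.00248, limma), and its adjusted p was between 0.00159 and 0.035 under all 18 alternatives.

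Of 20 other ERK-responsive genes 19 were tested. At an unadjusted p of 0.05 or less 6 were higher and 1 lower, again beside 13.9% and 2.61% of all tested entries. After adjustment 0 were called, beside 0.648%. EMP1, an epithelial membrane protein, was at 69.1 ± 7.58 and 101.0 ± 11.8 TPM, with no overlap (0.54, SE 0.10, adjusted p = 0.0589, limma). Without Empty vector replicate 2 its difference was 0.58 (adjusted p = 0.0507, limma). Cyclin D1 (CCND1), which carries ERK signalling to the cell cycle, was at 60.0 ± 10.2 and 76.7 ± 6.81 TPM (0.36, adjusted p = 0.172; 0.0413 without Empty vector replicate 2). EGR1, an immediate early transcription factor induced within minutes of ERK activation, lay in the other direction at 15.2 ± 2.83 and 11.5 ± 1.48 TPM (-0.36, SE 0.13, adjusted p = 0.231, limma). Its difference shrank to -0.26 without Empty vector replicate 2 (adjusted p = 0.278, limma). Empty vector replicate 2 was the highest control for 15 of these 19 genes, beside 34.9% of all entries. It was also the highest for 4 of the 5 other phosphatases, 9 of the 15 other ETS factors and 8 of the 14 brakes. For the cascade it was the highest in 12 of 27 genes, and for the receptors in 7 of 15. The median differences of the lists were 0.13 for the cascade, 0.14 for the receptors, 0.07 for the brakes, 0.18 for the other phosphatases, 0.14 for the other ETS factors and 0.12 for the other responsive genes, against 0.19 for the 10 feedback genes.

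**Figure D4:**
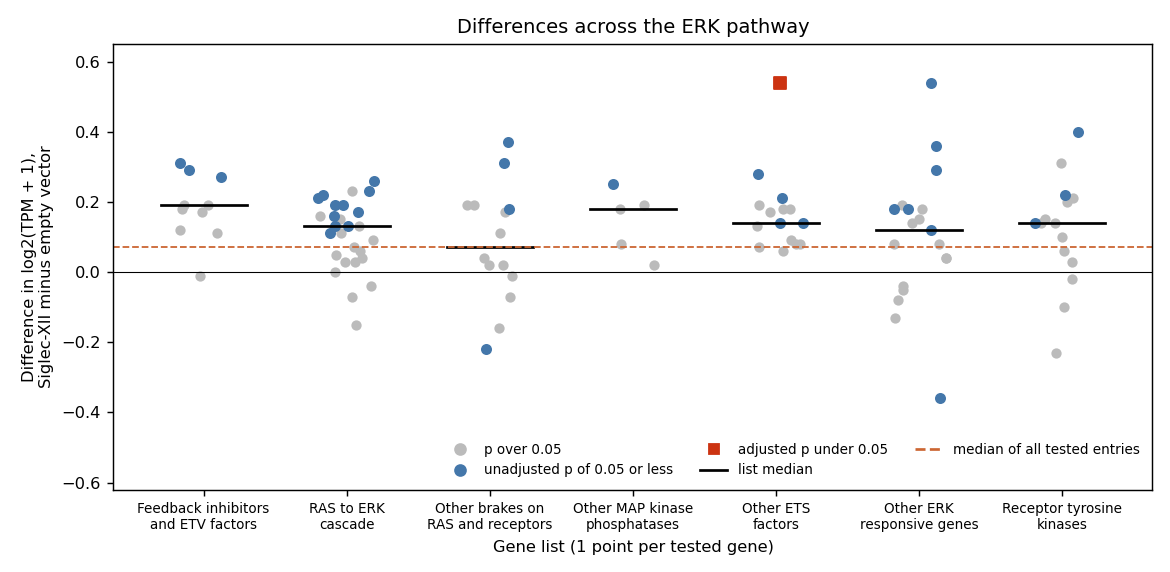
Difference between the groups in log2(TPM + 1), Siglec-XII minus empty vector (y axis), for each tested gene of each list (x axis), coloured by limma p-value, with black bars for list medians and a dashed line for the median of all tested entries (0.07). The single square past an adjusted p of 0.05 is ETV3 at 0.54, and the points of the 10 feedback genes lie between -0.01 and 0.31.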

How the data were processed

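RNA-seq was measured in 8 samples of Caco-2 cells, 4 of each group, as the labels give them. The authors quantified reads with kallisto (0.45.0 per the labels) on build hg19 and deposited 1 table of log2 values, log2(TPM + 1), with 1 column per sample and 63816 gene entries. The labels name an rRNA-depleting kit and the methods a poly(A)-selecting one. The methods name a test on gene counts, but the deposited values are log2 TPM, which no count test suits.

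The comparison of groups used limma (3.58.1, R 4.3.3; lmFit, then eBayes with a mean-variance trend, two-sided). Entries were tested if 4 or more samples had 1 TPM or more, and p-values were adjusted by the Benjamini-Hochberg method over these 15590 entries. TPM values were obtained as 2 to the power of the deposited value, minus 1, and 95% intervals and standard errors come from the fit. SIGLEC12 was compared by an exact permutation test. The fit was tested on simulated data. Positions and the longest transcript of each gene were taken from GENCODE lifted to GRCh37 by gene ID, which 86.9% of entries matched, and promoter windows from RefSeq on GRCh38.p14. Python 3.11.15 with matplotlib 3.10.9 drew the figures.

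The genes, the lists, the tests and the alternatives were chosen with earlier results of these data known, so no p was adjusted over a list alone and no list was tested as a set. The text names the 10 genes, SIGLEC12, their close relatives and, whatever their values, CIC, NF1, CCND1 and MAPK3. From each other list it names the genes with an adjusted p under 0.05. It also names those with the largest difference in each direction among unadjusted p of 0.05 or less. One result of the cascade list is not reported here. Other settings tried were a pseudocount of 0.1, 2 other filters (any value above 0, or a mean level of 5 TPM or more), 4 other scalings (quantile normalization, equal upper quartiles, rescaling without mitochondrial and the 100 most abundant entries, and removal of the length trend by loess with span 0.5), a replicate block, omission of each sample in turn, eBayes with no trend, and array weights.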

Additional observations from a re-analysis of the deposited data

Results flagged for a closer look

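Of 46 groups of 4 libraries examined for single values far from the rest, 2 stood out, and chance gives about 1 in 20. ETV5 in Siglec-XII replicate 2 was at 1.78 in log2(TPM + 1), above the other 3 libraries of its group at 1.09 to 1.18. NF1 in Empty vector replicate 4 was at 4.19, below the other 3 at 4.53 to 4.60. Empty vector replicate 2 was not among them for any of the 10 feedback genes.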

How the results depend on the processing

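Over all 15590 entries, 101 calls became 51 with no filter, 64 with the length trend removed, 54 without the mean-variance trend and 49 to 159 with each library left out, and the share of calls that were higher with Siglec-XII, 52.5%, became 32.6% under quantile normalization, 29.3% with equal upper quartiles, 34.2% without the mitochondrial and most abundant entries and 29.7% with the length trend removed. Over the 10 feedback genes, leaving out 1 library gave 0 to 1 calls, 1 to 4 unadjusted p of 0.05 or less and 1 to 4 genes without overlap, and the median over these genes was 0.09 to 0.19 above that of all entries under every setting. With a mean of at least 5 TPM only 6 of the genes were tested. SPRY4 changed sign with array weights (0.00) and ranged from -0.09 to 0.13 with a library left out, ETV4 from -0.01 to 0.33 and MAPK3 from -0.07 to 0.06, and CIC was at -0.01 under quantile normalization and -0.04 with the length trend removed. With a mean of at least 5 TPM there was 1 call among the brakes on RAS (CBL) and 1 among the other responsive genes (EMP1); with a library left out each of these lists and the receptors had 0 to 1. The causes were not tested. Libraries with the same replicate number did not deviate together (correlations across entries of -0.0742 to 0.0591, with 2 of 4 Siglec-XII libraries closest to their own number), and the replicate block gave 69 calls over all entries (26.1% higher), 0 among the feedback genes and 1 among the other responsive genes (EMP1, adjusted p = 0.0292). Depth per library is unknown, so counting error could not be separated from the rest.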
